A study of Mus musculus with 24 samples.

Results

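H3K4me3 at promoters was compared between wild-type (WT) and Prrx1-targeted (SG) cancer-associated fibroblasts from mouse mammary tumours (MMTV-CAF). Members were all regions of the 2 deposited broad H3K4me3 lists, 27339 in WT and 29166 in SG, together 56505 of the 136989 H3K4me3 regions of the series. Regions of both lists that shared at least 1 bp were paired into loci. A protein-coding gene was assigned to a class by the regions within 1000 bp of any of its annotated start sites. A promoter was called lost when only WT had a region there, gained when only SG had one, and narrowed or widened when the summed SG width over WT width had moved at least 2-fold from the median ratio of all paired loci.

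MMTV-CAF were grown from tumours of MMTV-PyMT breast cancer mice of the FVB/NJ strain and immortalised with the human papillomavirus genes E6 and E7. WT cells carried the control guide SgNS, and SG cells a CRISPR/Cas9 guide against Prrx1. Chromatin was immunoprecipitated with an antibody to H3K4me3 (Abcam ab8580) and sequenced against a matching input. Each group has 1 library, and no source states whether a line is a clone or a pool, so no difference between WT and SG has a replicate check. No test was possible, and differences between the lines cannot be told apart from differences between 2 cultures. Mouse embryonic fibroblasts (MEF) and wound-healing fibroblasts (WT and SG of each, both C57BL/6) served for comparison.

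H3K4me3 is placed at the start sites of active and poised genes by the SET1/COMPASS and MLL complexes. Most CpG-rich promoters carry it whether or not transcription is strong, whereas its spread into the gene body forms broad domains over genes that define a cell's identity. Prrx1 is a paired-related homeobox transcription factor of limb, craniofacial and stromal mesenchyme. Cancer-associated fibroblasts can adopt a contractile, matrix-producing myofibroblast state or an inflammatory state rich in cytokines.

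Of 22372 protein-coding genes, 12560 had a region at a start site in at least 1 of the lists. WT regions had a median width of 1176 bp and a median −log10 p of 7.51, against 1228 bp and 8.72 in SG. A total of 20004 loci were paired, with a median width ratio of 1.01 and a median fold-enrichment ratio of 1.11 (SG over WT). Width changes are given below as log2 SG over WT relative to that median ratio and called relative width. At the 11775 promoters marked in both lines, relative width had a median of -0.06 and an SD over promoters of 0.42. Read totals were not used here, so the depth behind each list is unknown.

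Promoter H3K4me3 was largely shared. 11403 of the 12560 marked genes (90.8%, Wilson 95% interval 90.3 to 91.3) kept a width within 2-fold. Of the marked genes, 334 were lost (2.66%) and 444 gained (3.54%). Of the 11775 genes marked in both lines, 125 were narrowed (1.06%) and 247 widened (2.1%). These 4 percentages are the background for the gene groups below, together with 3.65% for lost or narrowed and 5.5% for gained or widened. Intervals here and below cover counting error over genes and not differences between cultures. With a limit of 1.5-fold the counts were 570 narrowed and 557 widened. Regions away from start sites overlapped far less: 38.3% of such WT regions and 45.1% of such SG regions had no partner, against 4.34% and 4.65% of regions at start sites. Weak regions made up most of these: among regions with a −log10 p of at least 10, 2.43% (WT) and 7% (SG) of those away from start sites had no partner, against 0.392% and 1.11% at start sites.

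**Figure D1:**
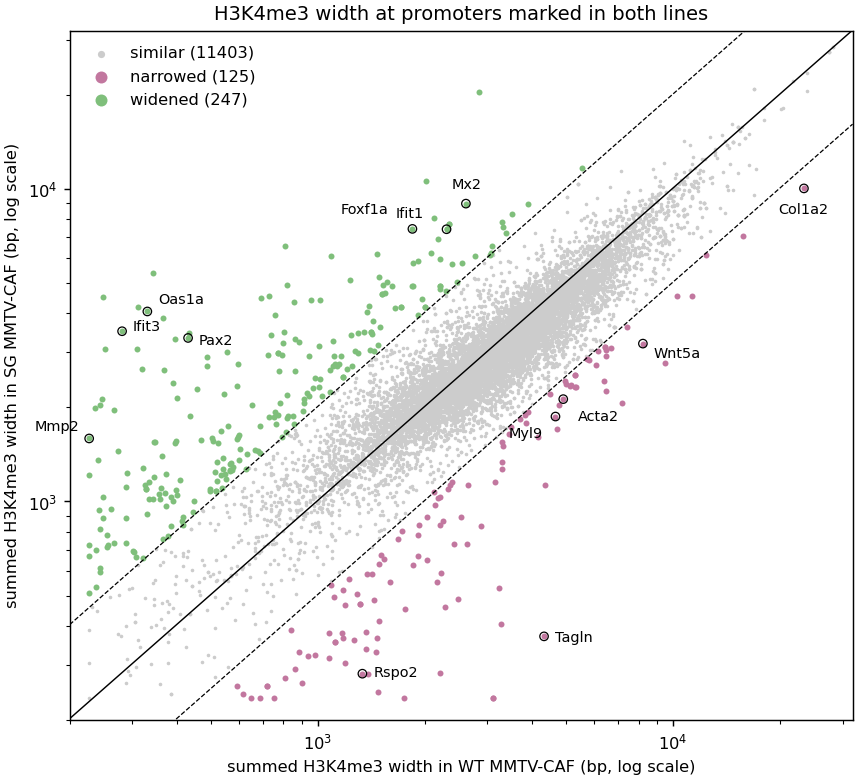
Summed H3K4me3 width in bp at each promoter marked in both MMTV-CAF lines, WT on the x axis and SG on the y axis, both log scales. The solid line is the median ratio of 1.01 and the dashed lines are 2-fold from it; narrowed promoters such as Tagln and Wnt5a lie below, widened promoters such as Ifit3 and Mmp2 above.

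The promoter of the targeted gene stayed marked. The Prrx1 locus (ENSMUSG00000026586.8, chromosome 1, minus strand, gene from 165175247 to 165243841 in mm9) held 15594 bp of H3K4me3 in WT and 15750 bp in SG, a relative width of 0.00. H3K27ac, a mark of active promoters and enhancers, gave 9 summits there in WT and 8 in SG, and 3 Prrx1 summits of the WT line lay within 1000 bp of the locus. H3K4me3 spreads over the gene start and does not report whether a guide changed the coding sequence, so these values do not check the edit. The 10 genes listed here as candidate master transcription factors (Prrx1, Klf4, Tead1, Tead4, Fosl2, Cebpb, Junb, Klf13, Nfix and Nr4a1), a selection that is not the study's own list, were all marked in both lines and within 2-fold. Their relative widths ran from -0.31 (Klf13, 6755 bp in WT and 5507 bp in SG) to 0.15 (Nr4a1, 4648 bp and 5208 bp).

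Fibroblast markers were mostly marked in both lists, while markers of other cells were mostly unmarked. Of 20 fibroblast markers, 17 were marked and 14 of these were similar, with wide regions over Pdgfra (11742 bp in WT, 9823 bp in SG), Vim (10689 and 9654 bp) and Twist2 (6495 and 7065 bp). Lum, Fap and Tcf21 had no region in either line. Thy1, a surface glycoprotein, was lost from a WT region of 518 bp, and Dcn, the proteoglycan decorin, was widened from 3894 to 8937 bp. Of 27 epithelial markers 20 were unmarked, among them Epcam and Cdh1, as were 17 of the 20 immune markers found, Ptprc among them, and 12 of 20 endothelial and pericyte markers, Pecam1 among them. The 7 marked epithelial genes included 3 that were lost, Krt19 (2313 bp in WT), Spint1 (801 bp) and Spint2 (266 bp), and 1 that was widened, Elf3 (243 to 611 bp). H3K27ac summits at those 7 loci numbered 2 in WT and 4 in SG. The part of other cells in the results was not tested.

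**Figure D2:**
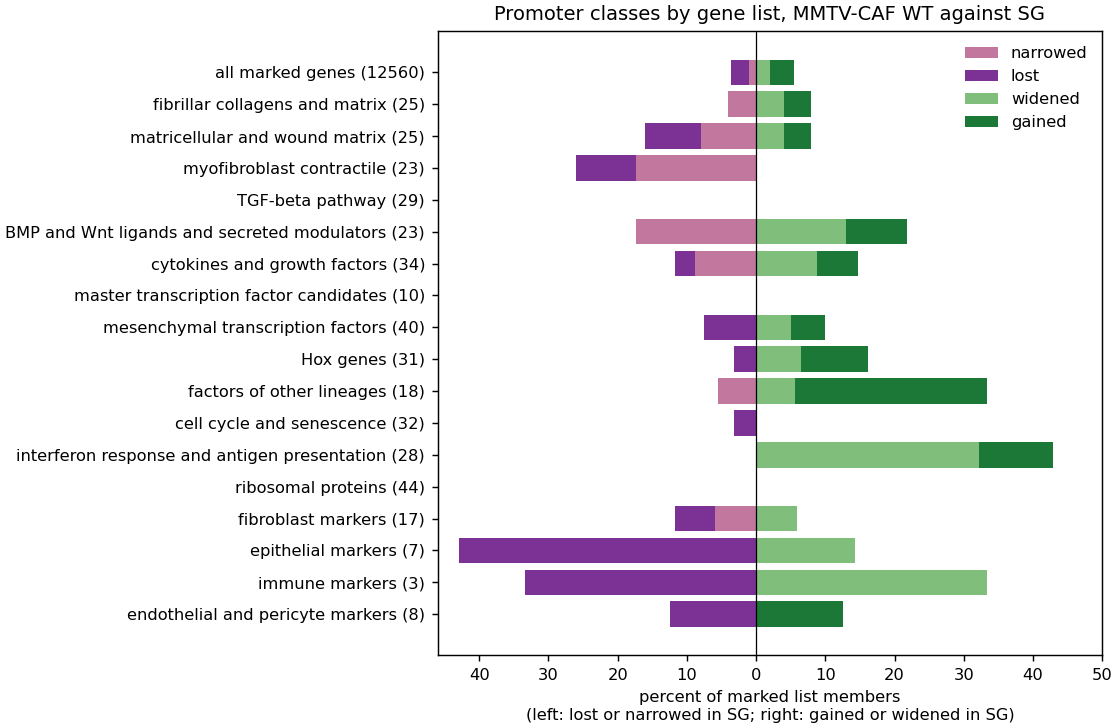
Share of the marked members of each gene list (number in brackets) that was lost or narrowed in SG (left) or gained or widened in SG (right), in percent. The contractile list reaches 26.1% on the left and 0% on the right, the interferon list 0% on the left and 42.9% on the right, and all marked genes 3.65% and 5.5%. The lists were chosen with earlier results of these data known.

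Some contractile promoters of the myofibroblast programme were narrowed or lost in SG, and most were similar. Of 24 listed genes 23 were marked, of which 4 were narrowed, 2 lost and 17 similar, so 6 of 23 were lost or narrowed (26.1%, Wilson interval 12.5 to 46.5) against 3.65% of all marked genes, and 0 of 23 were gained or widened. This list was also chosen with earlier results of these data known, so the share and its interval are only descriptive. Relative width was below 0 in 19 of the 21 members marked in both lines, with a median of -0.26. Fold enrichment relative to the median ratio was higher in SG at 11 of these 21 and lower at 10 (median log2 0.01). That shift is close to the one of the ribosomal protein genes, used as housekeeping promoters, which had a median of -0.24 with 39 of 44 below 0 and 0 of 44 lost or narrowed. Contractile promoters were wide in WT, with a median of 5913 bp, and the relative width of wide promoters depended on the list that their width was read from. The 3452 promoters over 4000 bp in WT had a median relative width of -0.16, and 1.04% of them were narrowed, whereas the 2942 over 4000 bp in SG had a median of -0.06 and 0.17% narrowed.

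Acta2, which encodes the alpha smooth muscle actin of stress fibres, had 4905 bp of H3K4me3 in WT and 2126 bp in SG (relative width -1.22). The WT region reached 3889 bp into the gene and the SG region 1649 bp, while the fold enrichment was 7.02 in WT and 7.73 in SG. At Acta2 the marked extent was shorter in SG while the fold stayed close to the median ratio (log2 -0.02 relative to it). Tagln, encoding the actin-binding protein SM22, went from 4331 bp at a fold of 6.21 to 370 bp at a fold of 2.67 (relative width -3.56). Myl9, a regulatory light chain of smooth muscle myosin, went from 4664 to 1870 bp (-1.33), and Lmod1, an actin filament nucleator of smooth muscle, from 1918 to 781 bp (-1.31). In each of these 4 genes the downstream edge moved more than the upstream edge. Actg2, the gamma smooth muscle actin, and Myocd, the coactivator that drives smooth muscle genes through SRF, had weak WT regions of 373 bp (−log10 p 5.49) and 273 bp (3.05) and none in SG.

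The remaining contractile genes kept their width class. Srf, which binds the CArG box, had 6068 bp in WT and 5416 bp in SG. Its coactivator Mkl1 had 4313 and 5194 bp and was, with Tagln2, 1 of the 2 members with a relative width above 0. Cnn1, encoding calponin, had 1834 and 1829 bp. Cald1 (9025 and 5970 bp), Vcl (6210 and 4137 bp) and Actn1 (6489 and 4554 bp), which encode actin-binding proteins of stress fibres and adhesions, were narrower in SG by less than 2-fold. H3K27ac summits at the 23 marked loci numbered 69 in WT and 64 in SG, with fewer in SG at 10 loci and more at 7. The summit counts went from 3 to 1 at Acta2, from 2 to 0 at Tagln and from 1 to 0 at Lmod1, and stayed at 2 at Myl9. A Prrx1 summit of WT cells lay at 7 of the 23 marked loci, Acta2 among them and Tagln, Myl9 and Lmod1 not. Of all similar promoters, which have a lower median WT width (3083 against 5913 bp), 18% held one.

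Promoter sequences of the contractile group were searched for the CArG box, the SRF binding motif, written as CCWWWWWWGG with W for A or T. The window was the 250 bases before and 50 after the main start site, which most protein-coding transcripts of the gene share, on both strands. Boxes with another letter were not counted, such as CCCTATATGG before the start of Acta2. It was present in 6 of the 23 marked contractile promoters, against 1.45% of all 22372 promoters, and in 3 of the 6 that were lost or narrowed. The motif was chosen after the values were seen. The 150 bases before the start sites of those 3 are shown 5′ to 3′ on the gene's strand (NCBIM37, the assembly also called mm9) with the CArG boxes in capitals.
Actg2 (chr6:83486260-83486409, minus strand): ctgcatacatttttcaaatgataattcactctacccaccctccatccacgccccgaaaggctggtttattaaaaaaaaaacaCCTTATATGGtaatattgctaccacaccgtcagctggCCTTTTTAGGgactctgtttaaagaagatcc
Tagln (chr9:45744142-45744291, minus strand): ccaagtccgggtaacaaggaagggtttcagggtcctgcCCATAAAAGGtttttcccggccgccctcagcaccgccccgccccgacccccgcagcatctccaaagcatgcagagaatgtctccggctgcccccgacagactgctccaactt
Myl9 (chr2:156601006-156601155, plus strand): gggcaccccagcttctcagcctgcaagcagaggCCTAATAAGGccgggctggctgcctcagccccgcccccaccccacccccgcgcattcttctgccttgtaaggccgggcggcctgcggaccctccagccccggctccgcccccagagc
Actg2 holds 2 boxes and Tagln and Myl9 1 each in these windows. A match is a description of the letters only.

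A part of the interferon-response promoters was widened or gained in SG. Of 29 listed genes found, 28 were marked, of which 9 were widened, 3 gained and 16 similar, so 12 of 28 were gained or widened (42.9%, Wilson interval 26.5 to 60.9) against 5.5% of all marked genes, and 0 of 28 were lost or narrowed. This list was chosen with earlier results of these data known, so the share and its interval are only descriptive. Relative width was above 0 in 23 of the 25 members marked in both lines, with a median of 0.71, against -0.06 over all promoters. Fold enrichment relative to the median ratio was higher in SG at 17 of these 25 and lower at 8 (median log2 0.15). The median summed width of the 28 was 2008.5 bp in WT and 3892 bp in SG. Relative width also varied with the WT width, which is the denominator of the ratio. The 567 promoters up to 1000 bp in WT had a median relative width of 0.48 and 28.9% of them were widened, while the 1968 promoters between 1000 and 2000 bp had a median of 0.09 with 2.69% widened, and the 5788 between 2000 and 4000 bp a median of -0.07 with 0.501% widened. Binned by SG width instead, the 424 promoters up to 1000 bp had a median of -0.05, with 17% narrowed and 7.08% widened.

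**Figure D3:**
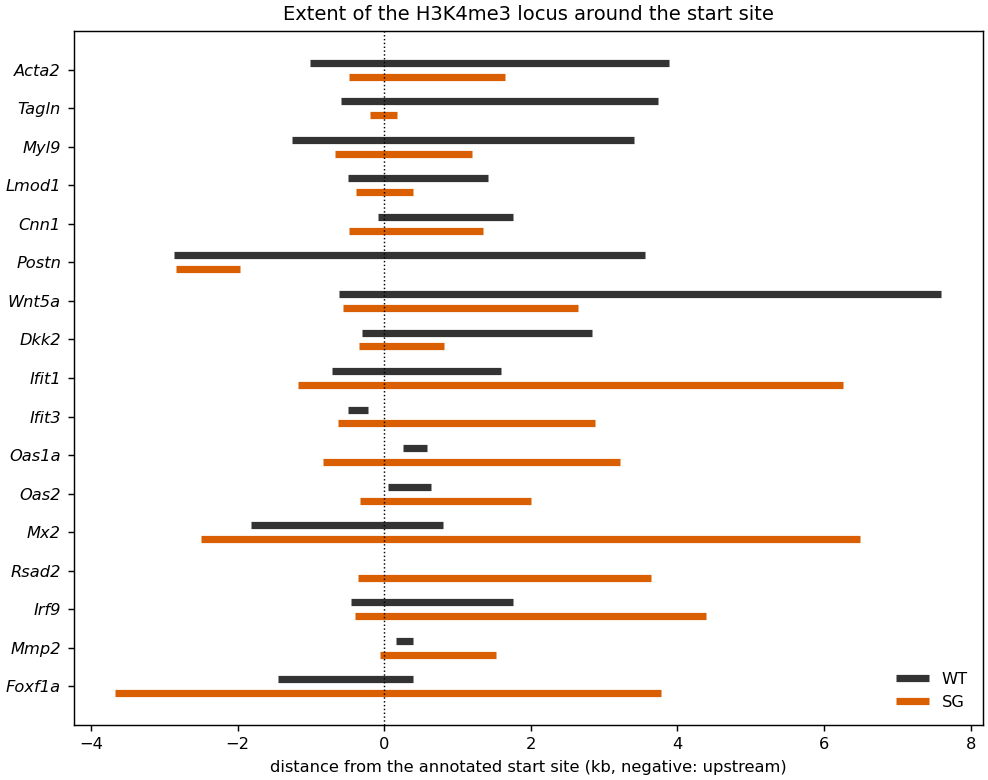
Extent of the H3K4me3 locus in WT (dark) and SG (orange) from its first to its last base, in kb from the annotated start site, with positive distances inside the gene. Contractile genes, Postn, Wnt5a and Dkk2 reach less far into the gene in SG (Cnn1 stays similar), and the interferon genes, Mmp2 and Foxf1a reach farther.

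The 12 gained or widened interferon genes were as follows. Ifit3, whose product restricts viral RNA translation, had a region of 281 bp upstream of the start site in WT and of 3507 bp across it in SG (relative width 3.63), with a fold of 2.64 in WT and 6.63 in SG. Oas1a, a sensor of double-stranded RNA, went from 331 to 4057 bp (3.60), and its neighbour Oas2 from 593 to 2343 bp (1.97). Ifit1 went from 2302 to 7437 bp (1.68), the GTPase gene Mx2 from 2610 to 8982 bp (1.77), Oasl2 from 1379 to 4033 bp (1.54), Gbp3 from 1391 to 4216 bp (1.59), and Bst2, encoding the virion tether tetherin, from 2467 to 5059 bp (1.02). Irf9, a DNA-binding factor of the interferon signal, was widened from 2206 to 4791 bp (1.11). Gained were Rsad2, encoding viperin (3994 bp in SG, −log10 p 22.4), Ifih1, encoding the RNA sensor MDA5 (2737 bp, 7.43), and Mx1 (1973 bp, 4.15).

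The other 16 marked members stayed within the 2-fold limit. Stat2 had 2860 and 4510 bp (0.65) and Irf7 1282 and 2477 bp (0.94). The ubiquitin-like modifier Isg15 had 5400 and 10371 bp (0.93). Tap1 and Psmb9, which share 1 divergent locus, had 1984 and 3280 bp (0.71), B2m 4817 and 6820 bp (0.49), and H2-D1 2454 and 3237 bp (0.39). Irf1 (3644 and 4105 bp) and Ifit2 (4426 and 4802 bp) were close to the median ratio, and Gbp2 (-0.07) and Tapbp (-0.20) were the 2 members below it. H2-K1 had no region in either line.

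H3K27ac differed in the same direction at these genes. The 27 marked loci held 37 H3K27ac summits in WT and 75 in SG, with more in SG at 20 loci, equal numbers at 7 and fewer at 0. Summits went from 0 to 2 at Oas1a, 0 to 3 at Oas2, 0 to 3 at Rsad2, 1 to 3 at Ifit1 and 3 to 7 at Isg15. The SG H3K27ac list was also the longer one, with 61603 summits against 53873, and at promoters of similar width 29.9% had more summits in SG and 17.3% fewer. A Prrx1 summit of WT cells lay at 2 of the 28 members.

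Sequence windows of the group were searched for GAAANNGAAA, the core letters of the interferon-stimulated response element. The windows were the 250 bases before and 50 after the main start site on both strands. These letters were chosen after the values were seen. They were present in 12 of the 28 marked members, against 3.83% of all 22372 promoters, and in 8 of the 12 that were gained or widened. The 150 bases before the start sites of 6 of these are shown 5′ to 3′ on the gene's strand, with the matches on either strand in capitals.
Ifit1 (chr19:34715211-34715360, plus strand): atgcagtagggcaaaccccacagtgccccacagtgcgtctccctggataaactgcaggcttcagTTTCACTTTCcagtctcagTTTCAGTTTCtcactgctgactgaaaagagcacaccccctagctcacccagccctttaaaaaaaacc
Ifit3 (chr19:34657871-34658020, plus strand): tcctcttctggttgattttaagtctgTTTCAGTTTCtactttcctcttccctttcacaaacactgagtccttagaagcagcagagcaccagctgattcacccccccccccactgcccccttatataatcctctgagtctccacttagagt
Oas2 (chr5:121199863-121200012, minus strand): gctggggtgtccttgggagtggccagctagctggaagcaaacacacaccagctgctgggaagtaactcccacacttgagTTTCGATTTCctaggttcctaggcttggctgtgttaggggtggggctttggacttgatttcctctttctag
Oas1a (chr5:121357537-121357686, minus strand): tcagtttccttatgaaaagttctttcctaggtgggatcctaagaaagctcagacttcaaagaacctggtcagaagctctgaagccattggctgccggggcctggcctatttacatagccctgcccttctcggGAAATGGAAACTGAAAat
Gbp3 (chr3:142222866-142223015, plus strand): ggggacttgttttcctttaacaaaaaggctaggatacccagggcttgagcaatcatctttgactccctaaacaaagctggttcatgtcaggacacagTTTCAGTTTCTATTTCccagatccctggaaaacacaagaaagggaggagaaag
Rsad2 (chr12:27141318-27141467, minus strand): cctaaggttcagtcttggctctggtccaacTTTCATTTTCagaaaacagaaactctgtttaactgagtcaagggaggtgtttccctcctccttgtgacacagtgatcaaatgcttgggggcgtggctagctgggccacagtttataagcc
Matches overlap in Oas1a and Gbp3. Over all classes the letters were found in 10.9% of the 247 widened (interval 7.62 to 15.4), 7.43% of the 444 gained (5.34 to 10.3), 8% of the 125 narrowed (4.4 to 14.1), 2.4% of the 334 lost and 3.03% of similar promoters. The CArG box was found in 1.2% to 1.6% of each class.

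Some changed genes were neighbours. Runs of at least 3 adjacent marked genes on different loci that were all gained or widened numbered 19, and those that were all lost or narrowed 1. Gained or widened genes are also the more frequent class, 5.5% against 3.65%, and no number of runs to be met at those shares was computed. The runs hold interferon-inducible families and others, such as Areg, Btc and Parm1 on chromosome 5, Gdf10, Anxa8 and Ppyr1 on chromosome 14, and Mmp2, Ces1e and Ces1g on chromosome 8. The Oas cluster on chromosome 5 (121180342 to 121357536) formed a run of Oas2, Oas3, Oas1c, Oas1b, Oas1g and Oas1a, in which Oas1g gained 5843 bp and Oas1b and Oas1c shared a locus that went from 1519 to 4601 bp. The guanylate-binding proteins gave a run of Gbp5 (311 to 4197 bp), Gbp7 (1297 to 3460 bp) and Gbp3 on chromosome 3, and a run that included Gbp9 (309 to 3079 bp) and Gbp6 (820 to 2184 bp) on chromosome 5. Slfn8 (2121 to 8095 bp), Slfn2 (0 to 4618 bp) and Slfn3 (0 to 446 bp) formed a run on chromosome 11, and Sp110, Sp140 and Sp100 one on chromosome 1. Members of these families are near-identical in part, and how reads shared between copies were placed is not stated. The single run in the other direction held the matrix metalloproteinase genes Mmp13 (246 bp in WT, none in SG), Mmp3 (1362 to 383 bp) and Mmp27 (2255 to 864 bp) on chromosome 9.

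Most matrix genes stayed within the 2-fold limit. Of 25 marked fibrillar collagen and matrix genes, 1 was narrowed, 1 widened, 1 gained and 22 were similar, while 20 of the 24 marked in both lines had a relative width below 0 (median -0.40). Col1a2, a chain of type I collagen, was narrowed from 23347 bp in 2 WT regions to 10048 bp in 1 SG region (-1.23), and held 4 Prrx1 summits. Col1a1, the partner chain, had 14732 and 9921 bp (-0.58), Col5a1 12671 and 7330 bp (-0.80) and the crosslinking enzyme gene Loxl1 13569 and 8708 bp (-0.65), whereas Fn1 (9820 and 9592 bp) and Lox (6857 and 6862 bp) kept their width. The median of the ribosomal protein genes was -0.24, and the matrix list was not tested against it. H3K27ac summits at the 25 marked loci of the list numbered 84 in WT and 97 in SG, with more in SG at 10 loci and fewer at 7, and Col1a1 went from 1 to 7.

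Of 25 marked matricellular and wound matrix genes 19 were similar, 2 lost, 2 narrowed, 1 widened and 1 gained, so 16% were lost or narrowed against 3.65% of all marked genes. Postn, encoding the wound matrix protein periostin, had a WT region of 6430 bp across its start site and an SG region of 875 bp that ended 1965 bp before it, so that it was counted as lost. Wisp2 was narrowed (2220 to 592 bp). Mmp2, the gelatinase A of stromal cells, was widened from 227 to 1591 bp with a −log10 p of 3.43 in WT and 45.6 in SG, and H3K27ac summits went from 0 to 3. Mmp9 was gained weakly (1009 bp, −log10 p 5.53). All 29 genes of the TGF-beta pathway, the signalling route that drives myofibroblasts, stayed within 2-fold, with relative widths from -0.72 to 0.60.

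Secreted signals changed in both directions. Among 23 marked BMP and Wnt ligands and modulators, 4 were narrowed, 3 widened and 2 gained. That is 17.4% lost or narrowed and 21.7% gained or widened, against 3.65% and 5.5% of all marked genes. Their median WT width was 1914 bp, against 3083 bp at similar promoters, and promoters narrow in WT were widened more often. Wnt5a, a non-canonical Wnt ligand, went from 8220 bp at a fold of 9.70 to 3201 bp at a fold of 4.33, and its H3K27ac summits from 3 to 0. The Wnt inhibitor gene Dkk2 (3148 to 1156 bp), the Wnt ligand Wnt2 (2206 to 1035 bp) and Rspo2, which amplifies Wnt signals (1334 to 281 bp), were also narrowed, and each had H3K27ac summits in WT and none in SG. Sfrp2, a secreted Wnt antagonist (1914 to 5878 bp), Wnt11 (929 to 2224 bp) and Wnt16 (235 to 1997 bp) were widened, and Wnt4 (2179 bp) and Rspo1 (961 bp) gained. Of 34 marked cytokine and growth factor genes, 11.8% were lost or narrowed and 14.7% gained or widened. Of these, 3 were narrowed (Csf1, 15703 to 7086 bp, Hbegf, 5706 to 2848 bp, and Fgf18, 2137 to 977 bp) and Pdgfd was lost (1885 bp). The inflammatory cytokine Il6 (3384 to 7224 bp) and Lif (2180 to 6913 bp) were widened, as was Fgf1 (520 to 1165 bp), and Csf3 (1914 bp) and Il33 (1751 bp) were gained with −log10 p of 5.19 and 6.22.

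Promoters of developmental regulators were gained, widened and lost. Of 18 marked factors of other lineages, 5 were gained and 1 widened (33.3%, against 5.5% of all marked genes) and 1, Eomes, was narrowed (2380 to 1152 bp). The 5 gained count as marked only through SG, so the share is a description. The 13 marked in both lines had a median relative width of 0.03, with 6 below 0. Gained were the cardiac and endodermal factor Gata4 (2839 bp, −log10 p 34.9), En2 (4026 bp, 16.03), Sim1 (1645 bp, 17.3), Sim2 (2365 bp, 12.7) and Lhx1 (1368 bp, 6.96), and the kidney factor Pax2 was widened from 431 to 3337 bp. The other 43 of the 61 found had no region in either line. Hox genes had 2 widened and 3 gained of 31 marked: Hoxc11 (368 to 2636 bp) and Hoxc12 (1293 to 2983 bp), and Hoxb13 (3219 bp), Hoxa13 (1046 bp) and Hoxa11 (300 bp). Over the marked Hox genes 16.1% were gained or widened and 3.23% lost or narrowed, against 5.5% and 3.65% of all marked genes. Hoxb4 was counted as lost, although its WT region of 2592 bp still overlapped an SG region of 1810 bp. Among 40 marked mesenchymal factors, Prrx2, the paralogue of Prrx1, was widened from 2297 to 4723 bp (1.03) and Foxf1a from 1845 to 7456 bp (2.003), Mkx, a factor of tendon cells, was gained (3888 bp, −log10 p 38.8), Alx4 was gained (1399 bp), and Msx2 (1766 bp), Scx (918 bp) and Foxd1 (292 bp) were lost. Over the 40 mesenchymal factors 10% were gained or widened and 7.5% lost or narrowed. Of 32 cell cycle and senescence genes only Cdkn1c changed class, lost from 1245 bp.

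Lost promoters were mostly short and weak. The 334 lost genes had a median WT width of 646 bp and a median −log10 p of 5.03, against 3083 bp and 44.0 at similar promoters, and 53 of them (15.9%) reached a −log10 p of 10. For 27 of the 334 a paired SG region remained and only its edge lay over 1000 bp from the start site. Those cases fill 9 of the 10 lost genes with the highest WT −log10 p: Ndufb8 (1 of its 2 gene records, the other being similar), Prickle4, Hsf2bp, Nup160, Zfp498, Tmem88, Rhbdl1, Msh4 and Doc2g. Prickle4, for example, belongs to a locus of 4416 bp in WT and 3517 bp in SG. The remaining 307 had no overlapping SG region, and the 10 strongest of these, chosen after the values were seen, were Ranbp17, Krt19, Gnpda2, Bicd1, Nkain3, Def6, Prkg2, Cdh18, Panx1 and Dmrta2. Ranbp17, a nuclear transport receptor gene, had 2020 bp at a −log10 p of 47.3 in WT and nothing in SG. The simple-epithelial keratin Krt19 had 2313 bp at 33.2, and Gnpda2 1409 bp at 30.2. H3K27ac summits stood at 8 of these 10 loci in WT and at 0 of 10 in SG. In MEF 9 of the 10 promoters were similar between WT and SG and Nkain3 was unmarked, and in wound-healing fibroblasts 10 of 10 were similar.

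Gained promoters, read from the SG list, were also mostly short. The 444 gained genes had a median SG width of 901 bp and a median −log10 p of 6.23, and 125 (28.2%) reached a −log10 p of 10. The SG list is stronger as a whole (medians of 8.72 and 7.51 over all regions), so these values are not comparable with those of lost promoters in WT. For 423 no WT region overlapped, while 21 had one whose edge lay outside the window. Genes known by a clone or model name were left out of the ranking, and 1 of them had the highest SG −log10 p of all, 86.6. The 10 highest of the rest included Cldn6, Tmem176b and Tmem176a (1 shared region of 4960 bp), Syt6, Ifi44, Cmpk2, Ndufa4l2, Mkx and Gata4, of which Cldn6 and Ndufa4l2 kept an overlapping WT region. The interferon-inducible Ifi44 and Cmpk2 gained 4722 and 2817 bp at 41.2 and 41.0. H3K27ac summits stood at 10 of these 10 in SG and at 2 of 10 in WT.

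The largest changes in width among loci of at least 2000 bp followed the same groups in part. The 10 most narrowed genes were Gpc2 and Stag3 (1 shared divergent promoter, 3112 to 235 bp), Tagln, Hs3st3b1 (3275 to 405 bp), Fhl1 (2208 to 282 bp), Fgd3 (3240 to 530 bp), Cst6 (2480 to 488 bp), Slc12a7 (2280 to 460 bp), Cyp2d22 (2170 to 552 bp) and Acsbg1 (4346 to 1133 bp). The 235 bp of Gpc2 and Stag3 is the smallest width of the SG list. Hs3st3b1, a heparan sulfate sulfotransferase gene, had a −log10 p of 40.2 in WT and 3.10 in SG. The 10 most widened were Tlr7 (248 to 4509 bp), Rnf43 (344 to 5398 bp), Gbp5, Ifit3, Oas1a, B4galnt4 (251 to 3067 bp), Lonrf3 (366 to 3866 bp), Gbp9, Aldh3a1 (247 to 2134 bp) and Sp140 (244 to 2034 bp). Their WT regions were short and weak, with a −log10 p from 3.64 (Sp140) to 7.39 (Oas1a), and Aldh3a1 reached only 4.56 in SG. Nearest to the limit, Tmem106a (2129 to 1071 bp) was just inside narrowed and Prdm15 (4409 to 2228 bp) just outside, and Bcl6b (3048 to 6158 bp) just inside widened and Zfp786 (1135 to 2279 bp) just outside.

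Width changes lay mainly downstream of the start site. Among 61 narrowed genes with 1 region per line across the start site, the median downstream reach was 2205 bp in WT and 810 bp in SG and the upstream reach 619 and 398 bp, and the downstream edge moved more in 53 of 61. Among 113 such widened genes the downstream reach was 578 and 1859 bp and the downstream edge moved more in 83. In 9589 similar genes it moved more in 63.6%. Fold enrichment relative to the median ratio was lower in SG at 83 of 125 narrowed promoters (median log2 -0.28) and higher at 192 of 247 widened promoters (0.41), against a median of -0.01 at similar promoters. Width and fold come from the same libraries and are not independent.

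H3K27ac was read from separate libraries of the same lines and had no part in the classes. It had fewer summits in SG at 45.6% of narrowed promoters (Wilson interval 37.1 to 54.3) and more at 4.8% (2.22 to 10.1). Lost promoters had fewer in 21% (16.9 to 25.6) and more in 4.49%. Similar promoters had fewer in 17.3%, which lies inside the interval of the lost ones, and more in 29.9%. Widened promoters had more in 66% (59.9 to 71.6) and fewer in 2.83%, and gained promoters more in 36.9% (32.6 to 41.5) and fewer in 0.901%. With regions of a −log10 p of at least 10 the share with fewer was 35.5% at lost promoters, and the share with more was 64.3% at gained ones. Summed over genes, the SG to WT ratio of summits was 0.57 at lost, 0.63 at narrowed, 1.10 at similar, 3.25 at widened and 6.48 at gained promoters. The H3K27ac lists give summits without widths, and many lost and gained promoters had none in either line.

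**Figure D4:**
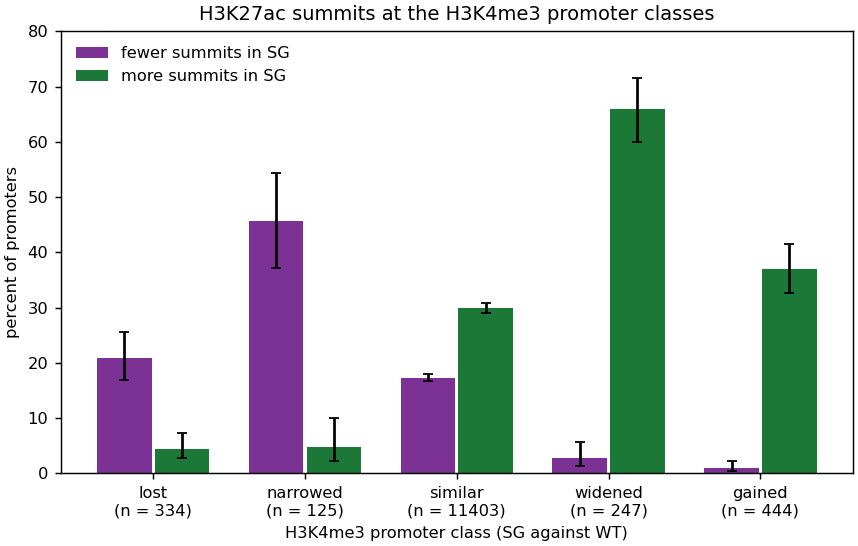
Percent of promoters in each H3K4me3 class with fewer (purple) or more (green) H3K27ac summits in SG than in WT within 1000 bp of the locus. Error bars are Wilson 95% intervals over genes: 45.6% of narrowed promoters had fewer and 66% of widened promoters had more, against 17.3% and 29.9% of similar promoters.

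Few of the changed promoters held a Prrx1 summit. A Prrx1 summit of WT cells lay within 1000 bp of the locus at 12 of 125 narrowed (9.6%), 11 of 334 lost (3.29%), 9 of 247 widened (3.64%) and 9 of 444 gained promoters (2.03%), against 18% of 11403 similar promoters. Similar loci are wider, and per Mb searched there were 35.95 summits at similar, 29.6 at narrowed, 11.0 at lost, 7.81 at widened and 6.35 at gained loci. The 12 narrowed promoters with a summit were those of Acta2, Bace1, Col1a2, Csf1, Klhl22, Lemd2, Mmp27 (5 summits), Mmp3, Pdlim2, Scd4, Sertad4 and Tmem47. Pdlim2, which encodes a cytoskeletal adaptor, went from 6377 to 2436 bp, and Sertad4 from 5282 to 2324 bp. Of the widened promoters, Il6, Samd9l (1549 to 4637 bp), Ptgfr (2020 to 10613 bp) and Etv1 (5524 to 11673 bp) held 1 summit each. No Prrx1 list of SG cells was used here.

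Start sites of the changed promoters were less CpG-rich. The CpG observed over expected ratio of the 1000 bases around the start had a median of 0.74 at similar promoters, 0.57 at narrowed, 0.50 at lost, 0.48 at widened and 0.42 at gained ones, against 0.55 over all genes. GC content had medians from 53.6% (widened) to 59.3% (similar). The letters TAATTA, a core bound by many homeodomain factors, occurred in that window in 8% of narrowed (4.4 to 14.1), 12% of lost (8.92 to 15.9), 12.1% of widened (8.64 to 16.8) and 11% of gained promoters (8.45 to 14.3), against 9.3% of similar promoters and 14.4% of all.

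The same genes were followed in the other fibroblast types, which share no library with MMTV-CAF. Of the 104 narrowed genes marked in MEF, 15.4% were lost or narrowed there (Wilson interval 9.7 to 23.5) and 3.85% gained or widened, against 4.71% and 0.854% of all marked MEF genes. In wound-healing fibroblasts 7.08% of 113 were lost or narrowed (3.63 to 13.4) and 13.3% gained or widened, against 3.11% and 3.66%. Of the 196 widened genes marked in MEF, 25% were lost or narrowed (19.5 to 31.5) and 2.55% gained or widened, and of 212 in wound-healing fibroblasts 8.02% and 10.8%. Gained genes had 33.7% of 181 lost or narrowed and 8.84% gained or widened in MEF, and of 252 in wound-healing fibroblasts 15.5% and 21%. Lost genes had 29.2% of 168 lost or narrowed and 5.36% gained or widened in MEF, and of 230 in wound-healing fibroblasts 15.7% and 10.9%. Genes of the 4 classes are narrower and weaker in H3K4me3 than similar genes, and the part of that in these shares was not tested.

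The contractile and interferon groups are set here beside all marked genes of each type. Of these, 4.71% in MEF and 3.11% in wound-healing fibroblasts were lost or narrowed, and 0.854% and 3.66% gained or widened. Contractile genes had 2 of 22 lost or narrowed in MEF and 2 of 21 in wound-healing fibroblasts, with median relative widths of -0.09 and -0.09. Ribosomal protein genes had medians of -0.24 in MMTV-CAF, -0.02 in MEF and -0.01 in wound-healing fibroblasts. The shift of the median in MMTV-CAF was thus not particular to contractile genes. WT and SG widths of Tagln were 3656 and 2617 bp in MEF and, in the wound type, 4362 and 3532 bp. Those of Acta2 were 4406 and 3415 bp in MEF and then 2288 and 2028 bp, and those of Myl9 were 3327 and 2685 bp in MEF and then 3023 and 3246 bp. In bp, Tagln and Acta2 were thus narrower in SG in each type, by less than 2-fold outside MMTV-CAF. In relative width Myl9 was also below 0 in MEF (-0.20) and wound-healing fibroblasts (-0.09). Acta2 had -0.26 and -0.37 there, against SDs over promoters of 0.28 and 0.37. The 2 MEF calls were Lmod1, narrowed (1631 to 465 bp), and Actg2, lost from 1592 bp. Cnn1, similar in MMTV-CAF, was narrowed in wound-healing fibroblasts (1124 to 490 bp). Interferon genes had 7 of 28 lost or narrowed and 0 gained or widened in MEF (median -0.27), and 1 of 28 and 0 in wound-healing fibroblasts (median -0.02). Ifit3 and Oas1a had 3553 and 2018 bp in MEF WT and no region in MEF SG, the reverse of MMTV-CAF. Mx2 had 5834 and 1140 bp in MEF, and 6767 and 5323 bp in wound-healing fibroblasts. Postn was lost in all 3 types. These differences were not tested, since each type has 1 library per group, and strain and tissue cannot be told apart from the fibroblast type.

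**Figure D5:**
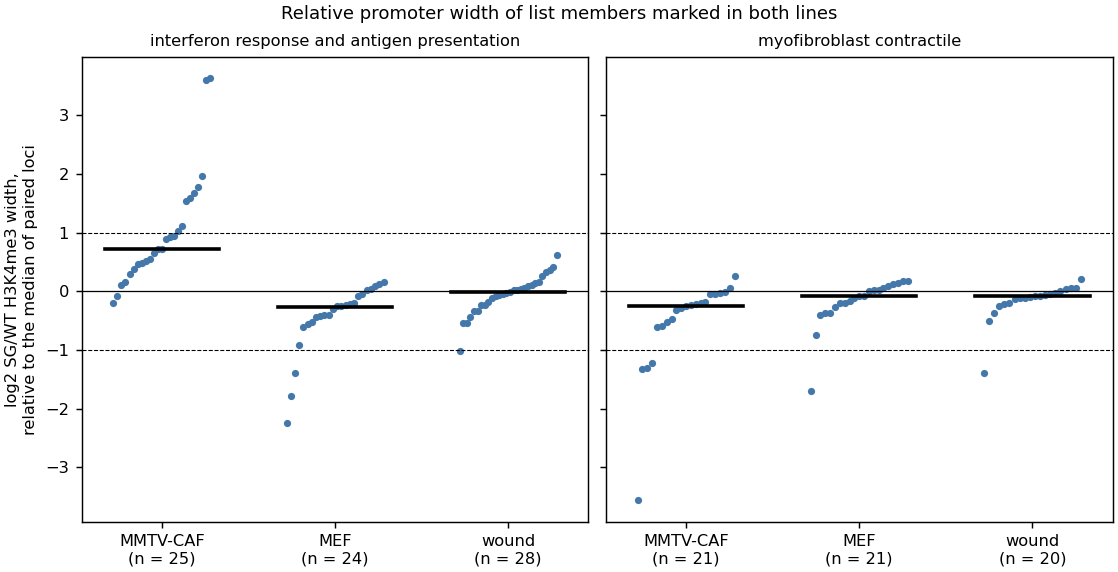
Relative width (log2 SG over WT, relative to the median of paired loci) of each interferon gene (left panel) and contractile gene (right panel) marked in both lines of a fibroblast type, points in ascending order with a black bar at the median. Interferon genes have a median of 0.71 in MMTV-CAF, -0.27 in MEF and -0.02 in wound-healing fibroblasts; contractile genes -0.26, -0.09 and -0.09; dashed lines mark the 2-fold limits.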

How the data were processed

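ChIP-seq libraries of H3K4me3, H3K27ac and Prrx1 were read as the peak lists the authors deposited. Per the labels and the study's methods, the authors used Trimmomatic for trimming, Bowtie for alignment of the paired-end reads on mm9 and Picard for the removal of duplicates. Peaks came from MACS2 with input as control, in broad mode for H3K4me3, and each library has its own list. The deposited H3K4me3 regions carry a fold enrichment over input (a ratio) and a −log10 p. For H3K27ac and Prrx1 the deposited values are summit positions of 1 bp, also with a −log10 p. Read totals were not used here, so depth is unknown.

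From these, loci were built from regions sharing at least 1 bp, widths were summed per line and locus, and fold enrichment was averaged with widths as weights. Genes were protein-coding entries of GENCODE vM1 on NCBIM37. 0 intervals lay beyond a chromosome end of that assembly. A gene was paired with the widest locus within 1000 bp of its start sites, and H3K27ac and Prrx1 summits were counted within 1000 bp of the locus. A called change was 2-fold against the median width ratio. With 1 library per group no test was run. Shares have Wilson 95% intervals. The classification was tested on simulated data made from the WT list. The tools were pandas 2.3.3, matplotlib 3.10.9, scipy 1.17.1 and numpy 2.4.6 under Python 3.11.15.

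Named genes were Prrx1, 10 listed candidate factors, the 10 strongest lost and gained, the 10 most narrowed and widened of at least 2000 bp, fibroblast markers and list members that changed class (at most 4 per list were required, and others are given where a group is described). Genes with clone names were counted and not named, and some genes that the rule names are not reported here. Gene lists, members and rules were chosen with earlier results of these data known. The 10 lost and gained genes without any overlapping region, the runs of neighbours, the Prrx1-bound genes, the CArG box and GAAANNGAAA were chosen after the values were seen. Alternatives were another overlap, stricter regions, equal list sizes, start-site coverage, joined regions, another fold, another reference ratio and subsets of loci.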

Additional observations from a re-analysis of the deposited data

Results flagged for a closer look

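Interferon-response promoters differed in direction between fibroblast types. Their median relative width (log2 SG over WT, relative to the median of paired loci) was 0.71 in MMTV-CAF over 25 members and -0.27 in MEF over 24. Irf9, Mx2 and Oasl2 were widened in MMTV-CAF and narrowed in MEF, where their WT widths were 2865, 5834 and 3442 bp. Ifit3, Oas1a and Oas2 were widened in MMTV-CAF and lost in MEF, from WT widths of 3553, 2018 and 2082 bp, and Rsad2 was gained in MMTV-CAF and lost in MEF from 2757 bp. Ifit3 was also narrowed in wound-healing fibroblasts, from 2844 bp. In WT cells these promoters were wider in MEF than in MMTV-CAF, for example 2018 against 331 bp at Oas1a, and the SG values went the other way, with none in MEF and 4057 bp in MMTV-CAF. The difference between the types was not tested, because each has 1 library per group.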

How the results depend on the processing

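Limits: each group is 1 library of 1 line, so culture, guide and genotype cannot be told apart, and depth behind each list is unknown. No paired analysis was possible because the result comes from no test and each group has 1 library. The 4 classes count genes whose regions pass a peak threshold, and most lost and gained regions are weak. With both lists limited to a −log10 p of at least 10, 217 promoters were lost, 420 gained, 68 narrowed and 138 widened. Strong regions set against all regions of the other list, an alternative chosen after seeing the data, gave 53 lost and 125 gained.

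With the start site itself covered, 79 were narrowed and 155 widened. With a limit of 1.5-fold, 570 were narrowed and 557 widened, so that the excess of widened over narrowed depends on the limit. With at least 1 kb in both lists, 44 were narrowed and 97 widened, and with regions within 1 kb joined 198 were narrowed. The median width ratio was 0.977 for regions of a −log10 p of at least 10, 1.002 with joined regions, 0.970 over promoters and 0.979 for loci of at least 1 kb, and the median fold ratio was 1.11 for the stricter regions and 1.12 both for equal lists and joined regions. More H3K27ac summits in SG were found at 64.3% of gained and 76.1% of widened promoters and fewer at 35.5% of lost ones with the stricter regions. Gained promoters covering the start site had more in 45.3%. Fewer were found at 36.5% of narrowed promoters at 1.5-fold and at 65.9% of those of at least 1 kb, where 78.4% of widened ones had more. A Prrx1 summit lay at 6.41% of changed promoters with the stricter regions and at 7.72% at 1.5-fold. Interferon genes gained or widened numbered 9 to 18 and contractile genes lost or narrowed 4 to 8 over all alternatives, and their median relative widths stayed between 0.68 and 0.80 and between -0.47 and -0.19. For 30 named promoters under 9 alternatives, 206 relative widths could be computed. 205 of these kept their class, and Cst6 was under the limit with joined regions (-0.85). The other 64 had no value: in 19 cases the promoter became lost, in 20 gained and in 4 unmarked, and in 21 it was not compared.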
